A study of Mustela putorius furo and Mus musculus with 4 samples.

Results

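Radial glia (RG) cells are the neural stem cells of the embryonic cortex. The cells described here are labeled non-cycling, since few or none of 7 cell division genes were detected in them. They were chosen by measured genes: a cell was kept if it had 750 to 5000 detected genes, at least 1 transcript of at least 6 of the 12 markers Fabp7, Aldoc, Mt3, Ptprz1, Tnc, Ddah1, Slc1a3, Vim, Sox9, Hes5, Pax6 and Ptn, and none of Eomes, Neurog2, Neurod2, Neurod6, Gad2, Pdgfra, Egfr or Olig2, genes of the progeny that RG cells produce. Fewer than 3 of the 7 cell division genes Mki67, Top2a, Cdk1, Birc5, Ube2c, Cenpf and Nusap1 and fewer than 2 of the 5 genes 1500015O10Rik (Ecrg4), Ogn, Igfbp5, Slc14a2 and Gfap were allowed. This gave 799 RG cells of 17707 mouse cells within the gene limits, of 18120 deposited. Of these, 501 were among 10498 control cells and 298 among 7209 Smo-cKO cells.

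The cells come from E18 mouse cortex of strain CD1. Smo-cKO embryos were hGFAP-Cre;Smo F/F, and control embryos were littermates described in the methods as Smo F/F and in the sample labels as wild type, so Cre is present in the Smo-cKO embryos alone while both genotypes carry the floxed alleles. Smo encodes the membrane protein that relays the Sonic hedgehog (SHH) signal. The hGFAP-Cre transgene is driven by a human GFAP promoter, which deletes Smo in RG cells of the cortex, with the medial part ahead of the rest, and cells born from them inherit the deletion. CellTrace Yellow, a dye that marks cells lining the ventricle, was injected at E17, and labeled cells were sorted and sequenced in droplets, in which a unique molecular identifier (UMI) lets each transcript be counted once. The deposited cells were assigned to a genotype by the number of cells in each library, and all directions below would turn if that assignment were wrong. There is 1 library per genotype, the number of embryos in each is not given in the sources used here, and none of the differences given below could be tested against replicates. Genotype therefore cannot be told apart from the embryos used or from how each library was made.

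RG cells span the cortical wall, with a cell body at the ventricle and a fibre that reaches the surface. They make neurons first, mostly through intermediate progenitors that express Eomes, and turn to glia late in development, when Egfr and Olig2 mark the glial intermediate progenitors. SHH reaches them from the ventral brain, the choroid plexus and neurons. It binds PTCH1, which releases SMO in the primary cilium, and the GLI proteins then switch target genes. BMP signals act through SMAD proteins on targets such as the Id genes, and both pathways are known to set when RG cells produce glia.

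The RG share was 4.77% of control cells (exact Clopper-Pearson 95% interval 4.37 to 5.20%) and 4.13% of Smo-cKO cells (3.69 to 4.62%). The sort and the depth both bear on these shares, since a deeper cell shows a UMI of an excluded gene more often. At least 6 markers were detected in 41.2% of control and 40.8% of Smo-cKO cells. After the cells with a UMI of an excluded gene were set aside, 1704 control and 1257 Smo-cKO cells were left. Of the cells with at least 6 markers, a UMI of Egfr was found in 612 control and 138 Smo-cKO cells, and a UMI of Olig2 in 550 and 146, whereas Eomes was found in 1516 and 1055. Of the cells left, 35.6% of control and 27.0% of Smo-cKO cells were cycling, 35.0% and 49.3% had at least 2 of the Gfap/Ecrg4 genes, and 29.4% and 23.7% were the RG cells. Cells with at least 2500 UMIs, 10325 in control and 6770 in Smo-cKO, were also thinned at random to that depth before the rule was applied, and shallower cells were left out, among them 5 control and 59 Smo-cKO RG cells. The RG share of these cells was 8.63% in control and 9.94% in Smo-cKO (means of 10 draws), so the order of the libraries turned, over a set of cells that differs from that of the unthinned shares. The lower share of cycling cells and the higher share of Gfap/Ecrg4 cells in Smo-cKO kept their direction after thinning, at 31.5% and 20.4% for cycling cells and 24.4% and 32.5% for Gfap/Ecrg4 cells. The plot of these shares shows the turn in the RG cells alone.

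**Figure D1:**
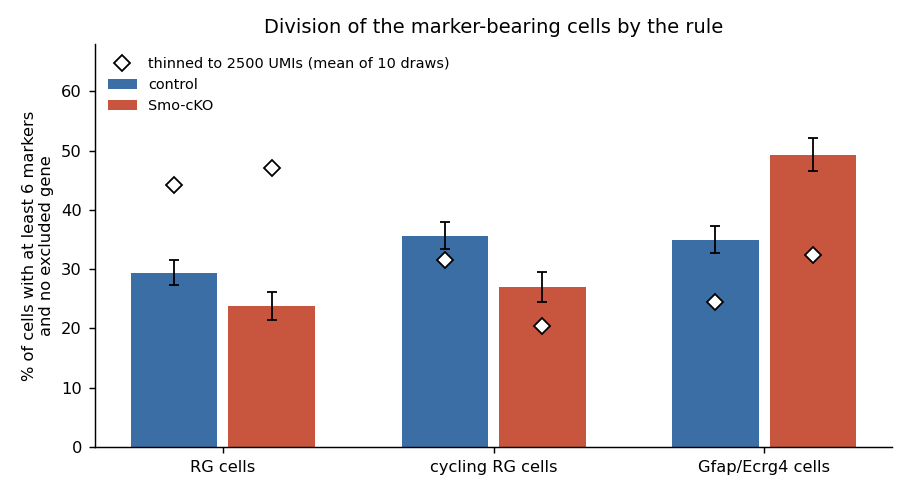
Share of cells (y axis, %) that the rule placed in each of 3 groups, among cells with at least 6 markers and no UMI of an excluded gene, for control (blue) and Smo-cKO (red). Bars are shares with exact Clopper-Pearson 95% intervals, which cover counting error only, and diamonds are means of 10 draws at 2500 UMIs per cell, with shallower cells left out. The bar of RG cells is higher in control (29.4% against 23.7%) while the diamonds are higher in Smo-cKO (47.1% against 44.1%).

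RG cells were deeper in Smo-cKO, with a median of 5541 UMIs and 2157.5 genes per cell against 3984 UMIs and 1762 genes in control, and their depth varied more. The lower and upper quartiles were 3325.5 and 6664.75 UMIs in Smo-cKO and 3163 and 4876 in control. Only 5 of the 501 control RG cells had fewer than 2500 UMIs, against 59 of the 298 Smo-cKO RG cells. All 12 markers were detected in 123 control RG cells (24.6%) and 86 Smo-cKO RG cells (28.9%). At the edge of the rule, 10 control and 17 Smo-cKO cells had exactly 6 markers, with medians of 3185 and 1620 UMIs. Just outside it, 6 control and 20 Smo-cKO cells had 5 markers, with medians of 4539 and 3526.5 UMIs. As counts per 1000000 UMIs of the same cells (CPM), Fabp7 was at 1562 CPM in the control cells with 6 markers and 455 CPM in those with 5, and 5643 and 631 CPM in the Smo-cKO cells, far below the 35139 and 36156 CPM of the cells with all 12 markers. Cells with 8 or 9 markers were at 13965 CPM in control and 23578 CPM in Smo-cKO. Fabp7 is itself counted by the rule, so cells with fewer markers hold less of it partly by design.

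Among the 12 markers, selected on these values and so given as a description, Fabp7, a lipid-binding protein of RG fibres, was the most abundant at 27517 CPM in control and 29561 CPM in Smo-cKO RG cells. The metallothionein Mt3 stood at 10352 and 10265 CPM, and the growth factor Ptn at 7283 and 9462 CPM. Vim, the intermediate filament of the radial fibre, was at 2309 and 2390 CPM, and Ptprz1, a receptor phosphatase that binds Ptn, at 2599 and 2359 CPM. Aldoc, an aldolase of glia, was at 1494 CPM in control and 2135 CPM in Smo-cKO, the highest ratio of the 12 (1.43, exact conditional 95% interval 1.36 to 1.5). Slc1a3, a glutamate transporter, was at 852 and 626 CPM, the lowest ratio (0.74, 0.68 to 0.80). Ddah1, Tnc, Sox9, Hes5 and Pax6 lay between 270.0 and 1220 CPM. No marker of the rule reached a difference of 1.5-fold between the libraries. All ratios of CPM are Smo-cKO over control, and their intervals cover counting error only.

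**Figure D2:**
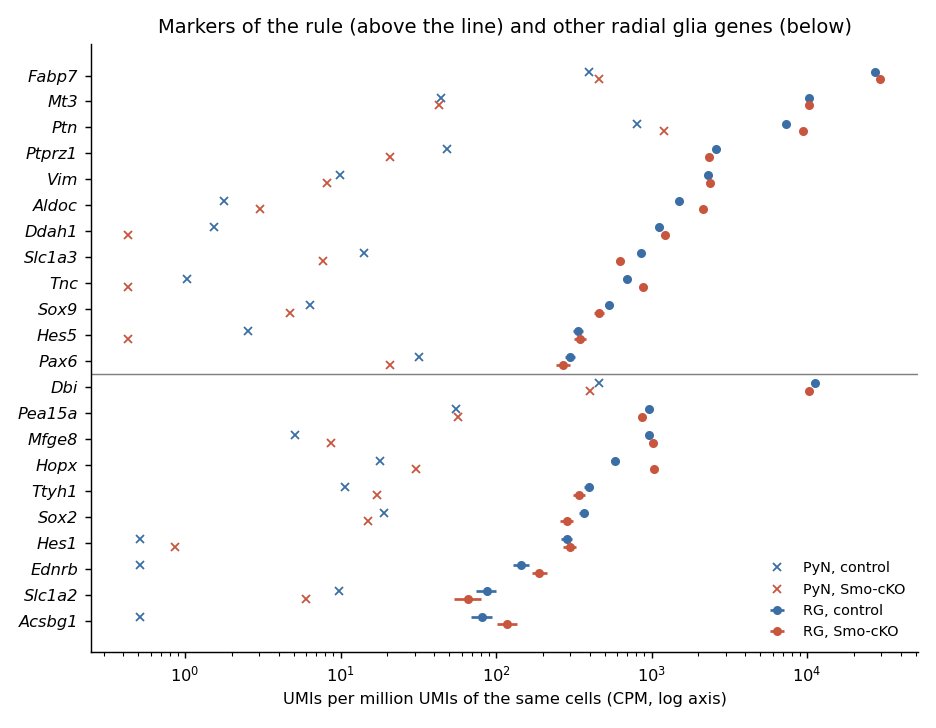
Level of the 12 markers of the rule (above the line) and of 10 other RG genes (below it), as CPM on a log axis. Circles are RG cells with exact Poisson 95% intervals, crosses are pyramidal neuron (PyN) cells, and blue and red are control and Smo-cKO; PyN values of 0 are left out. RG cells lie to the right of PyN cells for each gene shown, for Dbi at 11333 against 459 CPM in control.

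RG genes that the rule did not use were present in both libraries. Dbi, an acyl-CoA-binding protein abundant in RG cells, had a UMI in 99.8% of control and 99.3% of Smo-cKO RG cells, at 11333 and 10292 CPM. In PyN cells, taken as cells with a UMI of both Neurod2 and Neurod6 and fewer than 3 markers (1158 control and 598 Smo-cKO cells, medians 3138 and 3722 UMIs), Dbi was at 459 and 403 CPM. The stem cell factor Sox2 had a UMI in 75.2% and 62.8% of RG cells, and in 4.84% and 4.85% of PyN cells. Hes1, a Notch target, had a UMI in 51.9% and 62.4% of RG cells and in 0.173% and 0.334% of PyN cells. The cortical factor Lhx2 was at 246 CPM in control and 254 CPM in Smo-cKO RG cells, with a UMI in 58.7% and 63.8% of cells, and Emx1, which marks the dorsal telencephalon, had a UMI in 17.2% and 23.5%. Nkx2-1, which defines the medial ganglionic eminence, was at 0 in both libraries, and the 5 ventral genes together had a UMI in 3.79% and 2.35% of RG cells. Genes outside the rule thus mark these cells as cortical RG cells rather than PyN cells. They were not set against Gfap/Ecrg4 cells here. Of the RG cells, 328 of 501 in control and 214 of 298 in Smo-cKO had 1 of the 5 Gfap/Ecrg4 genes. Genes outside the rule bear less on the label non-cycling. The replication gene Pcna had a UMI in 35.9% and 39.3% of RG cells. In 341 of 501 control and 201 of 298 Smo-cKO RG cells, 0 of the 7 cell division genes were found.

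Markers of blood, endothelial and microglial cells were low over most RG cells but some were high in a few. Astrocyte markers were spread widely, with a UMI in 68.5% of control and 65.8% of Smo-cKO RG cells. They stood at 381 and 380 CPM, against 13.8 and 14.2 CPM in PyN cells. Vessel wall (mural) markers had a UMI in 16.97% of control and 26.17% of Smo-cKO RG cells, and ependymal markers in 5.79% and 12.1%. Haemoglobin transcripts summed to 10293 UMIs in control RG cells, of which 10257 came from 2 cells, and to 661 UMIs in Smo-cKO RG cells, of which 601 came from 2 cells. The 4 endothelial markers gave 89 UMIs in control, with 96.6% of them in 3 cells, and 3 UMIs in Smo-cKO. The 7 microglial markers gave 5 UMIs in control and 85 in Smo-cKO, with 82.4% of the latter in 3 cells. At least 3 UMIs of blood, vessel, meningeal and microglial genes together were found in 6 control and 12 Smo-cKO RG cells, and results were also computed without these cells. The 9 pyramidal neuron markers gave 95.6 and 105 CPM against 5059 and 5272 CPM in PyN cells, with Neurod2 and Neurod6 at 0 in RG cells by the rule. A UMI of these markers was found in 19.0% of control and 30.2% of Smo-cKO RG cells, which were deeper. Both choroid plexus markers measured were at 0. Of the 7 intermediate progenitor markers, 4 were at 0 in both libraries, Eomes and Neurog2 among them by the rule. A UMI of the list, mostly of Insm1 and Btg2, was found in 29.3% of control and 28.2% of Smo-cKO RG cells. Sex differed between the libraries. Xist, the RNA of the inactive X chromosome, had a UMI in 49 of 501 control RG cells and in 0 of 298 Smo-cKO RG cells (up to 1.01%, the limit of 3 cells), while a UMI of a Y-linked gene was in 205 and 140 RG cells. Over all cells of the libraries Xist was found in 1768 control and 6 Smo-cKO cells, so cells of both sexes are common in the control library alone, and results were also computed without the control cells with Xist. Xist and a Y-linked gene together were found in 2 control RG cells. No doublet caller was run. The libraries share 28 barcodes, and 3 RG cells carry one of these.

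Smo itself, on chromosome 6 from 29735503 to 29761365 in GRCm38, had 37 UMIs in 36 control RG cells (17.6 CPM, 7.19% of cells) and 1 UMI in Smo-cKO RG cells (0.638 CPM, 0.336% of cells), a CPM ratio of 0.036 with an interval of 0.00089 to 0.21. In PyN cells the shares were 0.345% and 0.167%. The direct target Ptch1 had 47 and 4 UMIs, or 22.4 and 2.55 CPM (ratio 0.11, 0.030 to 0.31), and the target and effector Gli1 had 20 UMIs in control and 0 in Smo-cKO. Prm1, a sperm protamine whose sequence is used in some Cre transgenes, had 1055 UMIs in 74.8% of Smo-cKO RG cells (673 CPM) and 0 in control RG cells, at least 472-fold higher against a floor of 3 counts over the control RG cells. In PyN cells, Prm1 had 42 UMIs in Smo-cKO and a UMI in 6.86% of cells. Whether Prm1 reads come from the transgene was not tested.

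Among 7008 genes with at least 50 UMIs in the RG cells of both libraries together, with the genes of the rule left out, CPM was at least 1.5-fold higher in Smo-cKO for 458 (6.54%) and at least 1.5-fold lower for 481 (6.86%). A difference of at least 2-fold was found for 135 and 146 genes. The median log2 ratio of all 7008 genes was 0.01. These counts have no test behind them. Of the 2777 genes with at least 200 UMIs, 88 were higher and 101 lower. The genes named below as highest and lowest are the 15 at each end with at least 100 UMIs whose difference also held with each cell weighted equally and in cells with at least 8 markers. Among genes with fewer UMIs, several of the largest ratios rest on 1 cell. Fcer1g, a gene of immune cells, had 63 UMIs in Smo-cKO, 54 of them in 1 cell, and Ctss had 58, 49 of them in 1 cell.

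**Figure D3:**
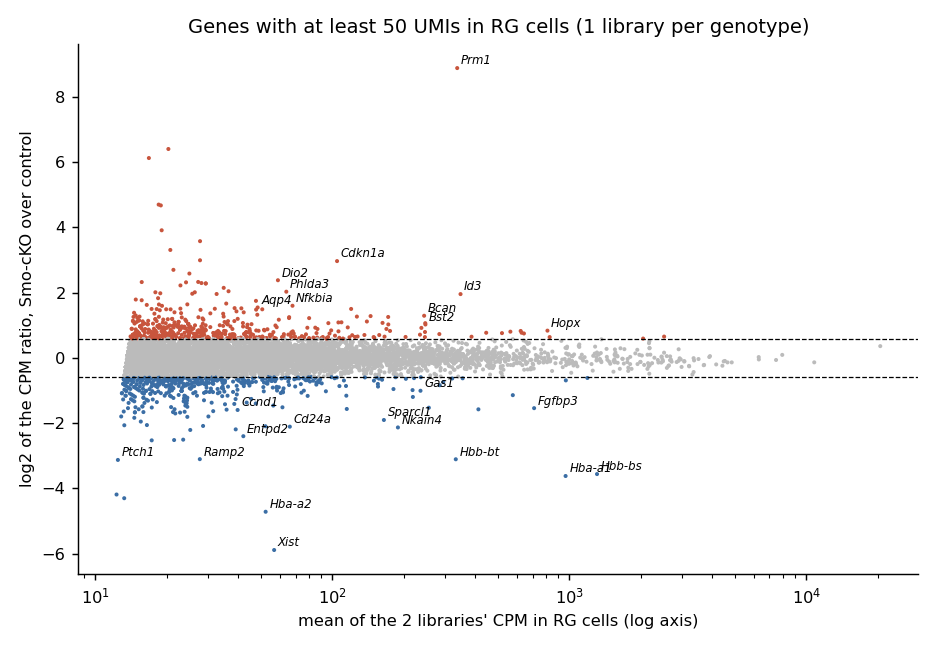
Log2 of the CPM ratio, Smo-cKO over control (y axis), against the mean CPM of both libraries on a log axis (x axis), for the 7008 genes with at least 50 UMIs in RG cells. Red and blue points are at least 1.5-fold higher and lower in Smo-cKO, dashed lines mark that fold, and genes at 0 in a library are drawn at the bound set by 3 counts; Cdkn1a and Id3 stand above and Fgfbp3 and Nkain4 below the main cloud, while the Hbb and Hba genes rest on 2 control cells.

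Cdkn1a, which encodes the cell cycle inhibitor p21 and lies on chromosome 17 from 29090976 to 29100727, had the highest ratio of the 30 genes at either end after Prm1. It had 50 UMIs in control and 291 in Smo-cKO RG cells, or 23.8 and 186 CPM, a ratio of 7.81 (5.77 to 10.8). The 33 control RG cells with 6 or 7 markers held 29 of its 50 UMIs. The log2 ratio of 2.96 became 4.14 in cells with at least 8 markers and 4.19 in cells with 0 of the 7 cell division genes. In control, 3.59% of RG cells (2.14 to 5.62%) held a UMI of Cdkn1a, against 24.2% in Smo-cKO (19.4 to 29.4%). Among the 496 control and 239 Smo-cKO RG cells with at least 2500 UMIs, the expected shares after thinning to that depth were 2.43% and 20.9%. PyN cells had shares of 0.432% and 1.17%. Cdkn1a was thus found in more Smo-cKO RG cells with and without thinning.

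Other genes that the tumour suppressor p53 is known to switch on were higher beside it. Of 23 genes of p53 and its targets, Cdkn1a among them, 16 had at least 50 UMIs. Of these, 10 were at least 1.5-fold higher and 0 lower, with a median log2 ratio of 1.31. Among genes with at least 200 UMIs the median was 0.59. Over all 7008 genes, 6.54% were higher and 6.86% lower, which is the background for this list and each later one. Trp53inp1, a regulator of p53, had 19 and 71 UMIs (9.04 and 45.3 CPM, ratio 5.01, 2.99 to 8.81). Ccng1, a cyclin that responds to p53, rested on 30 and 92 UMIs (14.3 and 58.7 CPM, ratio 4.11, 2.70 to 6.44). Phlda3, an inhibitor of AKT, on chromosome 1 from 135766119 to 135769136, went from 25.2 to 103 CPM (ratio 4.08, 2.97 to 5.67), with a UMI in 9.18% of control and 27.9% of Smo-cKO RG cells. Aen, a nuclease of apoptosis, was at 21.4 and 61.3 CPM (ratio 2.86, 1.99 to 4.17), and the ribosomal protein Rps27l at 648 and 1006 CPM (ratio 1.55, 1.44 to 1.67). The other 4, named after their values were seen, were the stress cytokine Gdf15 (ratio 6.48), the apoptosis gene Bbc3 (4.02), the RNA-binding protein gene Zmat3 (3.11) and Mdm2, which encodes the ligase that removes p53 (2.15). Trp53 itself was at 78.0 and 113 CPM (ratio 1.45, 1.16 to 1.80) and Bax at 352 and 484 CPM (1.38), both short of 1.5-fold. Btg2 had a ratio of 0.69, on the other side.

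These genes were found together in the same cells. The 72 Smo-cKO RG cells with a UMI of Cdkn1a had a median of 5271.5 UMIs, and the 226 without it 5615 UMIs, so the cells with Cdkn1a were not the deeper ones. Phlda3 had a UMI in 65.3% of the cells with Cdkn1a (53.1 to 76.1%) and in 15.9% of the cells without it (11.4 to 21.4%). Ccng1 had a UMI in 47.2% and 11.5%, Aen in 34.7% and 16.4%, and Zmat3 in 27.8% and 12.4%. In control RG cells, 18 cells had Cdkn1a and Phlda3 had a UMI in 38.9% of them (17.3 to 64.3%), against 8.07% of the other 483. Cdkn1a was thus spread unevenly: 24 Smo-cKO RG cells (8.05%) had 5 or more of its UMIs, against 3 control RG cells (0.599%). Fgfbp3, which binds FGF, differed between the same sets of cells in the other direction, at 121 CPM in the Smo-cKO cells with Cdkn1a and 441 CPM in those without. The stem cell factor Sox2 was alike in both, at 291 and 284 CPM.

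Nfkbia, Cebpb and Ddit3 were also among the 15 highest ratios. Nfkbia, the inhibitor and target of NF-kB, was at 33.8 and 102 CPM (ratio 3.02, 2.27 to 4.06), and the transcription factor gene Cebpb at 20.0 and 57.4 CPM (2.87, 1.97 to 4.25). Ddit3, a factor of the unfolded protein response, was at 16.7 and 47.2 CPM (2.84, 1.87 to 4.37). Of 11 immediate early and heat shock genes with at least 50 UMIs, 1 was higher and 0 were lower, with a median log2 ratio of -0.25. That gene was Junb, at 21.4 and 57.4 CPM (2.68, 1.86 to 3.93), while Fos stood at 275 and 306 CPM, Jun at 488 and 410 CPM and the chaperone gene Hspa8 at 641 and 786 CPM. Most of these genes thus lay within 1.5-fold, as most of all genes did. Tissue dissociation is known to switch on such genes, and its part in these values was not tested.

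Genes of interferon response and antigen presentation were higher in Smo-cKO RG cells: of 12 listed, 9 had at least 50 UMIs, 7 of these were at least 1.5-fold higher and 0 lower, and the median log2 ratio was 0.82. B2m, the light chain of class I molecules, was at 84.7 and 206 CPM (ratio 2.43, 2.01 to 2.93), and the heavy chains H2-D1 and H2-K1 at 88.5 and 191 CPM and at 127 and 224 CPM. Isg15, a ubiquitin-like protein induced by interferon, was at 48.1 and 112 CPM (ratio 2.32). Bst2 was at 163 and 331 CPM (2.03) and Ifitm3, a membrane protein that restricts viruses, at 412 and 717 CPM (1.74). In PyN cells too, the ratios were 3.76 for B2m, 1.99 for H2-D1, 2.81 for H2-K1 and 3.05 for Ifitm3, so the higher levels were found outside RG cells as well. B2m and the H2 genes are abundant in microglia, whose markers had 5 UMIs in control and 85 in Smo-cKO RG cells. In Smo-cKO RG cells, 43 of the 322 UMIs of B2m came from 1 cell. Without the RG cells that carry RNA of blood, vessels, meninges or microglia, the median log2 ratio of the list was 0.88. Cells with fewer than 3 UMIs of such genes were kept. What part microglial RNA has in these values was not tested.

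Of the BMP pathway, 14 of 25 genes had at least 50 UMIs, with 2 higher and 1 lower at 1.5-fold and a median log2 ratio of 0.03. Over all 7008 genes the shares were 6.54% higher and 6.86% lower. Both higher genes are targets. Id3, an inhibitor of differentiation on chromosome 4 from 136143497 to 136145755, was at 143 CPM in control and 553 CPM in Smo-cKO RG cells (300 and 866 UMIs, ratio 3.87, 3.39 to 4.43). It had a UMI in 24.2% and 52.3% of cells, or in 18.1% and 44.5% at 2500 UMIs per cell, and in 1.04% and 1.34% of PyN cells. Cells with 5 or more UMIs of Id3 made up 2.99% of control and 19.1% of Smo-cKO RG cells. Hopx, a homeodomain protein that is also a marker of outer RG cells, was at 582 and 1037 CPM (ratio 1.78, 1.65 to 1.92), and 17.2% and 39.9% of RG cells had 5 or more of its UMIs. The other Id genes lay close to 1, with ratios of 0.95 for Id1 (0.79 to 1.14), 1.08 for Id2 (0.88 to 1.32) and 0.90 for Id4 (0.77 to 1.04). Bambi, a decoy receptor, was lower at 30.9 and 15.3 CPM (0.50, 0.30 to 0.80), and the type II receptor gene Bmpr2 was at 105 and 70.2 CPM (0.67). Among the Id genes, Id3 thus stood alone past 1.5-fold.

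Of the outer RG genes, 11 of 14 had at least 50 UMIs, 2 were higher and 0 lower, and the median log2 ratio was 0.42. Of FGF and ERK genes, 11 of 17 had at least 50 UMIs, with 3 higher and 2 lower and a median log2 ratio of 0.08. Beside Hopx, the other higher outer RG gene was Etv5, a transcription factor induced by FGF and ERK signals, at 58.5 and 96.4 CPM (ratio 1.65, 1.29 to 2.11). Etv4, its close relative, was at 29.0 and 58.7 CPM (2.02, 1.45 to 2.84), and Ier3, another ERK target, at 10.5 and 40.9 CPM (3.90, 2.37 to 6.65). Etv1 was at 91.8 and 117 CPM (1.28) and the feedback inhibitor Spry2 at 347 and 306 CPM (0.88, 0.79 to 0.99), so of the 7 ERK targets with at least 50 UMIs, 3 were higher and 0 lower, 5 ratios were over 1 and the median log2 ratio was 0.36. Fgfr3, one of the receptors, was lower at 24.7 and 12.1 CPM (0.49, 0.27 to 0.84), and Fgfr1 was level at 125 and 124 CPM.

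Fgfbp3, an FGF-binding protein on chromosome 19 from 36917550 to 36919615, had the most UMIs of the genes lower by more than 2-fold, apart from haemoglobin. It was at 1059 CPM in control and 363 CPM in Smo-cKO RG cells (2225 and 569 UMIs, ratio 0.34, 0.31 to 0.38). A UMI was found in 391 of 501 control and 149 of 298 Smo-cKO RG cells, and 38.1% and 11.7% had 5 or more. PyN cells had 79 and 33 UMIs of Fgfbp3, a ratio of 0.71. Fgfbp3 was thus lower in Smo-cKO both in its level and in the number of cells that held it.

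Genes of astroglial maturation, 20 of 22 with at least 50 UMIs, gave 4 higher and 1 lower and a median log2 ratio of 0.16, which ran from -0.06 to 0.20 over the alternatives. Aqp4, the water channel of astrocyte endfeet, was at 24.7 and 72.1 CPM (ratio 2.92, 2.08 to 4.13). Pla2g7, a phospholipase, was at 39.0 and 92.6 CPM (2.37), the secreted protease gene Htra1 at 105 and 221 CPM (ratio 2.10) and Cpe, a carboxypeptidase, at 387 and 654 CPM (1.69). Dio2, which activates thyroid hormone and is known from glia, had one of the highest ratios of all, with 40 and 155 UMIs, or 19.0 and 98.9 CPM (5.20, 3.65 to 7.56). Bcan, a proteoglycan of the matrix, was at 142 and 347 CPM (2.44, 2.12 to 2.83), and the laminin receptor subunit gene Itga6 at 23.3 and 48.5 CPM (2.08). Apoe, Clu and Sparc had ratios of 1.42, 1.40 and 1.49, just short of 1.5-fold. Of the 20 genes, 9 had ratios under 1, among them all 3 genes of transmitter uptake (median log2 ratio -0.33) and Cst3, a protease inhibitor, at 4801 and 4058 CPM (0.85). The 6 astrocyte markers measured for the check of cell types summed to 381 and 380 CPM. Sparcl1, a matrix protein that astrocytes secrete, was at 261 and 69.6 CPM (0.27, 0.22 to 0.33), with a UMI in 40.9% of control and 7.05% of Smo-cKO RG cells. The glial genes thus held ratios near both ends.

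The remaining highest ratios belonged to genes of varied roles. Gria3, a glutamate receptor subunit, was at 12.8 and 56.8 CPM (ratio 4.42, 2.85 to 7.08), Ass1, an enzyme of arginine synthesis, at 13.3 and 51.7 CPM (3.88) and Dcxr, a sugar reductase, at 21.9 and 73.4 CPM (3.35). Gfod2 was at 17.1 and 54.3 CPM, but 46 of its 85 UMIs in Smo-cKO came from 1 cell.

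Among the lowest ratios, Nkain4, which interacts with the sodium pump, had the most UMIs after haemoglobin. It was at 308 CPM in control and 70.2 CPM in Smo-cKO RG cells (648 and 110 UMIs, ratio 0.23, 0.18 to 0.28), with a UMI in 63.5% and 22.8% of cells. Entpd2, an ectonucleotidase of stem cells on chromosome 2 from 25395874 to 25401321, was at 70.9 and 13.4 CPM (0.19, 0.11 to 0.30). Cd24a, a surface protein used to sort neural progenitors, was at 108 and 24.9 CPM (0.23, 0.16 to 0.33), Sox8 at 46.2 and 10.9 CPM (0.24, 0.13 to 0.40) and Gadd45g, which is switched on in cells that start to differentiate, at 84.7 and 19.8 CPM (0.23, 0.15 to 0.34). Dpysl4, Actr3b and Col22a1 had ratios of 0.22, 0.22 and 0.29. Ramp2, a receptor subunit known from endothelium, was at 49.5 and 5.74 CPM, with 19 of its 104 control UMIs in 1 cell. The haemoglobin genes Hba-a1, Hba-a2, Hbb-bs and Hbb-bt met the rule as well, with ratios of 0.081, 0.038, 0.085 and 0.12, but without the cells that carry such RNA the log2 ratios turned to 0.61 for Hba-a1, 1.14 for Hbb-bs and 1.18 for Hbb-bt, and Hba-a2 was left at no more than 3 UMIs per library. Xist completed the 15.

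Of the SHH pathway, 8 of 15 genes had at least 50 UMIs, 0 were higher and 4 lower, and the median log2 ratio was -0.44. It was -0.01 without the control cells with Xist, and 0.18 in cells with 0 of the 7 cell division genes and among genes with at least 200 UMIs. Beside Ptch1 these were Gas1, a co-receptor, at 315 and 156 CPM (662 and 245 UMIs, ratio 0.50, 0.43 to 0.58), Gli2 at 23.8 and 12.8 CPM (0.54, 0.30 to 0.92) and the target Mycn at 41.4 and 20.4 CPM (0.49, 0.32 to 0.75). The co-receptor genes Cdon and Boc had ratios of 1.14 and 1.01, and Gli3, whose product represses targets when SHH is absent, was at 107 and 121 CPM (1.13, 0.92 to 1.37). The log2 ratio of Gli2 was -0.46, short of 1.5-fold, in cells with 0 of the 7 cell division genes.

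Of the regulators of the G1 phase, 11 of 12 had at least 50 UMIs, 5 were lower and 0 higher, and the median log2 ratio was -0.41, or 0.10 among genes with at least 200 UMIs. Ccnd1, which encodes cyclin D1, was at 59.9 and 19.8 CPM (ratio 0.33, 0.22 to 0.49), with a UMI in 18.4% and 5.03% of RG cells. Its log2 ratio of -1.60 became -0.90 with at least 5 markers and -0.63 with cells of Egfr, Olig2 or Pdgfra kept. In Smo-cKO, 9 of its 31 UMIs came from 1 cell. Its partner Cdk6 was at 82.8 and 30.0 CPM (0.36, 0.26 to 0.50), and the ratio in PyN cells was 0.245. The more abundant Ccnd2 and Cdk4 had ratios of 1.26 (1.16 to 1.38) and 0.91. Ccne2 (0.35), E2f1 (0.58) and Rbl1 (0.56) were the others, but none of the last 3 stayed past 1.5-fold with each cell weighted equally. Of 4 CDK inhibitors with at least 50 UMIs, 1 was higher and 0 lower. That one was Cdkn1a, while Cdkn1b, at 162 and 158 CPM, Cdkn2c and Cdkn2d had ratios between 0.98 and 1.24. Cdkn1c had 5 and 19 UMIs.

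Of 20 DNA replication genes, 19 had at least 50 UMIs. Of these, 12 were at least 1.5-fold lower and 0 higher, all 19 ratios were under 1, and the median log2 ratio was -0.62. Dut, which removes dUTP, had the most UMIs, at 249 and 160 CPM (ratio 0.64, 0.55 to 0.75). Pcna, the sliding clamp, was at 185 and 122 CPM (0.66, 0.55 to 0.79), Mcm4 and Mcm6 of the helicase at 78.0 and 38.9 CPM and at 86.1 and 56.8 CPM, the chromatin remodeller gene Hells at 84.2 and 47.2 CPM, and the ligase gene Lig1 at 91.4 and 59.4 CPM. With each cell weighted equally the log2 ratios of Pcna, Mcm6 and Lig1 were -0.25, -0.31 and -0.33, short of 1.5-fold. Of the RG cells, 55 in control and 21 in Smo-cKO had 2 of the 7 cell division genes. In RG cells with none of these genes the median log2 ratio of the list was -0.73. That cut also rests on detection, and RG cells were shallower in control than in Smo-cKO. What part leftover cycling cells have in these ratios was not tested. In cycling RG cells the ratios were near 1, at 1.22 for Pcna, 0.94 for Mcm6, 0.97 for Mcm4 and 1.00 for Dut.

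**Figure D4:**
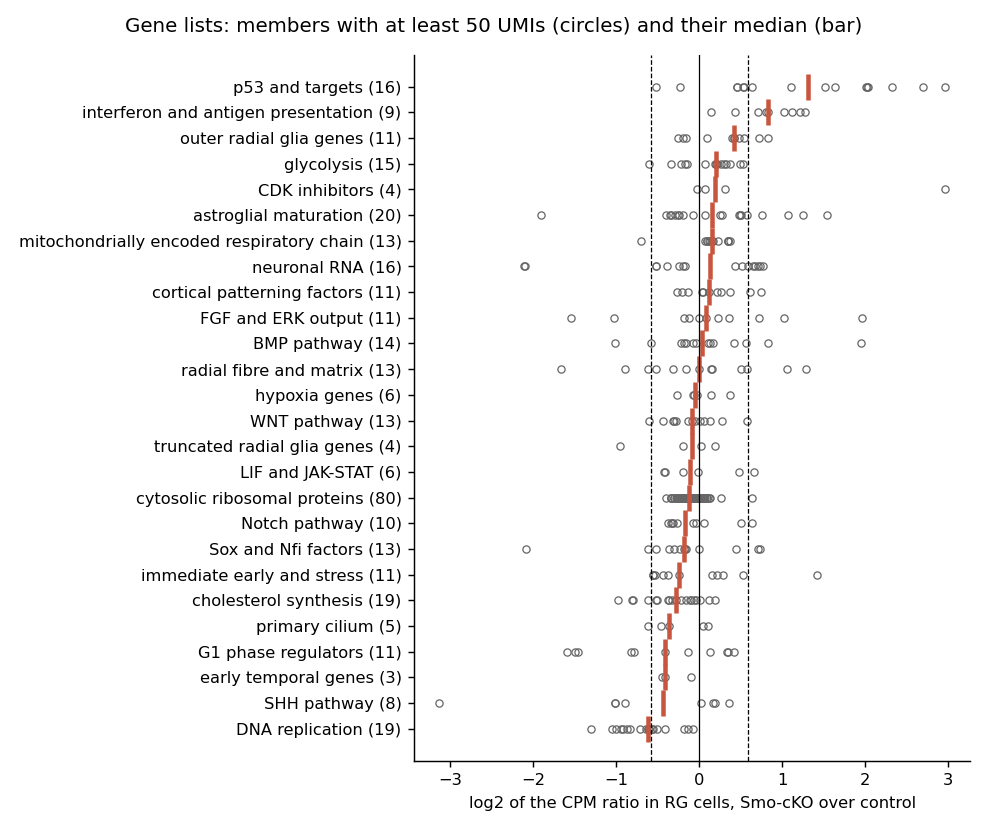
Log2 of the CPM ratio in RG cells, Smo-cKO over control (x axis), for the members of 26 gene lists (y axis, number of members with at least 50 UMIs in brackets). Circles are genes, red bars are list medians and dashed lines mark 1.5-fold; the p53 list has the highest median (1.31) and the DNA replication list the lowest (-0.62), and beside these 2 the interferon list alone (0.82) has a median past 1.5-fold.

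The other lists stood closer to the median of all genes. Of 10 Notch genes, 1 was higher (Hey1, a target, 48.1 and 74.7 CPM, ratio 1.55) and 0 lower, with Notch2 at 789 and 628 CPM (0.80) and Hes1 at 285 and 297 CPM (1.04). Of 13 WNT genes, 1 was lower (Znrf3, ratio 0.66) and 0 were higher, and Sfrp1, a secreted inhibitor abundant in RG cells, was at 591 and 645 CPM. Of 11 cortical patterning factors, 2 were higher and 0 lower. Emx2, which sets medial and caudal identity, was at 51.4 and 86.2 CPM (1.68, 1.29 to 2.18), and the ratio in PyN cells was 1.61. Zic2 had 29 and 33 UMIs. Lhx2, Nr2f1 and Meis2 had ratios of 1.03, 1.03 and 0.91. Of the 13 Sox and Nfi factors, 10 ratios were under 1, with 2 higher (Sox5 1.66, Nfic 1.63) and 2 lower (Sox1 0.65, Sox8), and Sox2 was at 366 and 285 CPM (0.78, 0.69 to 0.88).

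Of 19 genes of cholesterol synthesis, 16 ratios were under 1, and 4 genes were at least 1.5-fold lower and 0 higher, with a median log2 ratio of -0.28. Hmgcs1, an early enzyme, was at 545 and 382 CPM (ratio 0.70, 0.63 to 0.77), Cyp51 at 198 and 114 CPM (0.57), and the regulator Insig1 at 268 and 174 CPM (0.65). Lss, which closes the sterol rings, had a ratio of 0.57. Glycolysis genes gave 0 higher and 1 lower of 15, the glucose transporter Slc2a1, whose log2 ratio of -0.61 turned to 0.13 without the cells that carry RNA of blood, vessels, meninges or microglia. Eno1 and Aldoa had ratios of 1.44 and 1.40. The 13 mitochondrially encoded genes had a median log2 ratio of 0.15, with 0 higher and 1 lower (mt-Nd6, 46 and 21 UMIs). Of 80 cytosolic ribosomal protein genes, 63 ratios were under 1, and the median log2 ratio was -0.12. The 6 hypoxia genes gave 0 in either direction, as did the 3 early temporal genes and both metallothioneins, Mt1 (ratio 1.23) and Mt2 (1.08). The 4 truncated RG genes gave 1 lower, Ctgf (0.52), and the 5 primary cilium genes 1 lower, Arl13b (41 and 20 UMIs). The median log2 ratio of the cilium genes turned from -0.36 to 0.13 in cells with 0 of the 7 cell division genes. Over 10 alternative settings, Arl13b and Zic2 were short of 1.5-fold in 6, Hey1 and Znrf3 in 4 and Ctgf in 2.

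Of 13 genes of the radial fibre and matrix, 2 were higher, Bcan and Itga6, and 3 lower. Nes, which encodes the intermediate filament nestin, was at 96.6 and 63.2 CPM (ratio 0.65, 0.51 to 0.84), and the integrin gene Itgb8 at 66.6 and 35.7 CPM (0.54, 0.39 to 0.74). Col4a1 (0.32) rested on a few cells and turned with the choice of cells. Of 16 genes of neuronal RNA, 6 were higher and 2 lower. The 12 neuron genes among them gave 6 higher and 1 lower, with a median log2 ratio of 0.55. The 4 intermediate progenitor genes gave 0 higher and 1 lower, with a median of -0.46. The median log2 ratio of all 16 was 0.13. It turned to -0.15 in cells with at least 8 markers and to -0.21 among genes with at least 200 UMIs. Tubb2b, at 1637 and 2464 CPM (1.51, 1.44 to 1.58), and Elavl2 (1.59) were short of 1.5-fold in 7 and 4 of 10 alternative settings. The lower ones were Cd24a and Gadd45g. The neuronal tubulin gene Tubb3 had a UMI in 6.59% of control and 13.8% of Smo-cKO RG cells and was at 29.5 and 42.1 CPM, against 1597 and 1672 CPM in PyN cells. What part RNA from neighbouring neurons has in these values was not tested.

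Set beside the cells most like them, RG cells had ratios on the same side of 1 for most ranked genes as cycling RG cells (607 control and 339 Smo-cKO cells) and as Gfap/Ecrg4 cells (596 and 620 cells). A difference between these groups of cells was not tested. Id3 had a ratio of 5.55 in cycling RG cells and 3.01 in Gfap/Ecrg4 cells, beside 3.87 in RG cells, and Dio2 had 5.02 and 4.12, beside 5.20. Nkain4 had 0.082 and 0.21, beside 0.23, and Entpd2 0.052 and 0.14, beside 0.19. Cdkn1a stood apart in its values: its ratio was 7.81 in RG cells and 7.83 in Gfap/Ecrg4 cells, but 1.49 (1.04 to 2.11) in cycling RG cells. Phlda3 followed the same order with 4.08, 4.31 and 1.84, and Nfkbia had 3.02, 1.85 and 1.23. Cebpb and Ddit3 had ratios of 0.99 and 0.91 in cycling RG cells. The plot of these ratios shows the p53 targets closer to 1 in cycling RG cells than in RG cells, and Id3 and Dio2 far from 1 in all 3 groups.

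**Figure D5:**
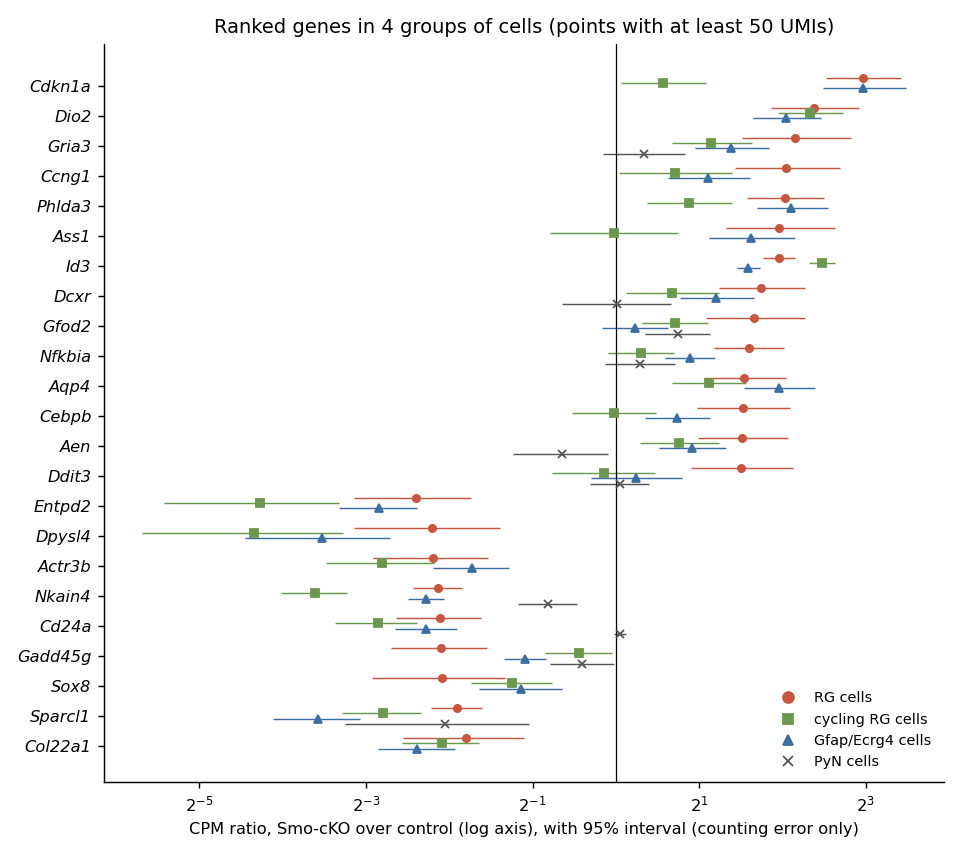
CPM ratio, Smo-cKO over control, on a log axis with exact conditional 95% intervals that cover counting error only, for 23 of the ranked genes (y axis) in RG cells (circles), cycling RG cells (squares), Gfap/Ecrg4 cells (triangles) and PyN cells (crosses). Points with fewer than 50 UMIs are left out; for Cdkn1a the cycling RG cells (1.49) lie far left of the RG cells (7.81), while for Nkain4 and Entpd2 all groups of glial cells lie left of 1.

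Within the Smo-cKO library, 223 RG cells had a UMI of Prm1 and 75 had none, with medians of 5748 and 4012 UMIs, so cells without Prm1 were shallower. Cdkn1a was at 222 CPM in the cells with Prm1 and 41.1 CPM in those without it, Id3 at 618 and 294 CPM, Hopx at 1139 and 633 CPM, and Fgfbp3 at 253 and 800 CPM. The cells without Prm1 thus lay between the others and control RG cells, where these 4 genes were at 23.8, 143, 582 and 1059 CPM. The levels of other genes did not follow this order. B2m was at 171 CPM with Prm1 and 342 CPM without it, against 84.7 CPM in control. The share of cells with a UMI of B2m did follow it, at 46.2%, 38.7% and 20.8%. Of the 322 UMIs of B2m in Smo-cKO RG cells, 43 came from 1 cell. Ddit3 was at 56.0 and 12.7 CPM, against 16.7 CPM, but the cells without Prm1 held only 4 of its UMIs. Sox2 was at 278 and 313 CPM. Only 1 UMI of Smo was found in the 298 cells, in a cell without Prm1.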

How the data were processed

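Mouse single-cell libraries, 1 per genotype, were analysed, and the ferret samples of the series were not used. The authors deposited UMI counts per gene and cell (17170 genes) without normalization, and the submitters' processing notes name Cell Ranger, StringTie, Seurat 3 and mm10. No sample is named in the barcodes, which end in 1 of 2 suffixes. The suffix with more cells was taken as control, after the cell numbers that the study states, and every direction rests on this. Cells under 10% mitochondrial transcripts were already the only ones present.

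UMIs were summed over the RG cells of a library (2101768 in control, 1566611 in Smo-cKO) and given as CPM. Ratios have exact conditional binomial, levels exact Poisson and shares exact Clopper-Pearson 95% intervals, all for counting error only (scipy 1.17.1 and pandas 2.3.3 under python 3.11.15). With 1 library per genotype no test was made. A gene at 0 was set to 3 counts for a bound. Members and lists were chosen with earlier results of these data known. Named genes are the markers, Smo, the 15 highest and 15 lowest ratios and, of each list, up to 6 genes past 1.5-fold and 4 others by UMIs. Calculations were tested on simulated data. Coordinates are from the GENCODE annotation of GRCm38, which holds 16568 of the 17170 symbols. Alternatives changed the cell rule, cell weighting, scaling and the minimum of UMIs. Some genes are not reported here.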

Additional observations from a re-analysis of the deposited data

Results flagged for a closer look

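Among the named genes, 2 were past 1.5-fold in RG cells and past 1.5-fold the other way in PyN cells, and the difference between the groups of cells was not tested in either case. The ratio of Aen was 2.86 in RG cells (45 and 96 UMIs) and 0.64 in PyN cells (98 and 37 UMIs). The ratio of Hbb-bs was 0.0846 in RG cells, where 2 control cells hold most of its UMIs, and 3.21 in PyN cells (31 and 59 UMIs).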

How the results depend on the processing

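No paired analysis was possible because each genotype has 1 library. The RG share of 4.77% in control became 3.25% with 0 of 7 cell division genes, 5.90% with cells of Egfr, Olig2 or Pdgfra kept and 8.63% among cells thinned to 2500 UMIs. The share of 4.13% in Smo-cKO became 2.79% with 0 of 7 cell division genes, 3.59% with at least 8 markers, 3.59% with at least 1000 genes and 9.94% after thinning. The 458 higher and 481 lower genes became 990 and 935 with at least 20 UMIs, 88 and 101 with at least 200 UMIs, and 135 and 146 at 2-fold. The other settings kept both counts within 1.5 times. Of 88 named genes past 1.5-fold, between 73 and 87 stayed so under each setting that changed the cells, weights or scaling. Log2 ratios turned for Col4a1 (1.00 with at least 5 markers, 0.73 with no limit on genes, 1.15 with 0 cell division genes), for Slc2a1 (0.21 and 0.19 with at least 5 markers and with 0 cell division genes, and 0.13 without the cells that carry RNA of other types), for Ramp2 (0.34 with at least 5 markers), for Hbb-bs and Hbb-bt (0.14 and 0.18 with at least 5 markers, 1.14 and 1.18 without the carrying cells) and for Hba-a1 (0.61 without them). The median of the sex-linked and haemoglobin genes turned to 0.092 without them. The settings without the carrying cells, without control cells with Xist, with thinning and at 2-fold were chosen after seeing the data. Apart from what the text above names, the cause of each change was not tested. Depth limits genes under 50 UMIs, for which no size is called.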
